A study of Mus musculus with 28 samples.

Results

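The 9 genes described here, Sohlh1, Sohlh2, Dmrt1, Dmrtb1, Stra8, Meioc, Ythdc2, Dazl and Nanos3, belong to spermatogonial differentiation and meiotic entry. They were taken from 17923 gene symbols that the deposited peak tables list alone on at least 1 line, and are set by name, with no threshold on a measured value. Every H3K27ac peak listed under 1 of these symbols was used, 125 of 471458 H3K27ac peaks. A further 80 peaks named Nanos3 or Sohlh1 together with other genes and were kept apart. A promoter peak was one within 1 kb of the start listed under the symbol alone. Meioc appears in the tables under its older symbol Gm1564 and was matched through its transcript, NM_001127576.

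The study mapped acetylation of lysine 27 of histone H3 (H3K27ac), a mark of active promoters and enhancers, by ChIPmentation, in which a transposase adds sequencing adapters to the precipitated chromatin. All cells came from testes of C57BL/6 mice, wild type (WT) or Scml2-KO, and were isolated by MACS, which sorts on a surface protein with magnetic beads, or by STA-PUT, which separates cells by sedimentation. SCML2 is a germline Polycomb protein. H3K27ac was mapped in 2 libraries for each of 6 groups. Those of spermatogonia came from mice at postnatal day 7: Thy1+ WT, c-Kit+ WT, Thy1+ Scml2-KO and c-Kit+ Scml2-KO. The other groups were pachytene spermatocytes (PS) and round spermatids (RS) of adult Scml2-KO mice. H3K27ac of wild-type spermatocytes and spermatids was not analysed here, so all adult values below come from Scml2-KO, and mouse age cannot be told apart from cell stage. The labels do not say which cells were isolated by which method, so a part of the isolation cannot be told apart from stage either. Chromatin not precipitated (input) was sequenced in 2 libraries for each of the 6 groups and for WT PS and WT RS, 16 in all. The labels do not say whether the 2 libraries of a group came from separate animals, so the p-values measure the spread between libraries, which may be technical.

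Spermatogonia become committed to differentiation when retinoic acid acts on them, and the KIT receptor then appears on their surface. SOHLH1 and SOHLH2 are basic helix-loop-helix factors of this step, DMRT1 holds spermatogonia out of meiosis, and DMRTB1 (DMRT6) acts at the passage from mitosis to meiosis. STRA8 is induced by retinoic acid and starts the meiotic programme, which MEIOC and its partner YTHDC2, an RNA helicase, sustain. DAZL binds germ cell mRNAs and makes germ cells competent for meiosis, and NANOS3 is an RNA-binding protein of early germ cells.

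Promoter sequences were read from RefSeq (GRCm38.p6), which held entries for 7 of the 9 genes; Dmrt1 and Ythdc2 were not among them. The 4 sequences below are those of the promoters whose acetylation the results turn on: Meioc and Dmrtb1, marked in adult cells; Dazl, marked in every library; and Stra8, marked in few. Each is the 250 bases before the RefSeq start, 5′ to 3′ on the gene's strand, with capitals for matches to any of 6 motifs searched on both strands: CACGTG (E-box), CNCCTCAG (STRA8 and MEIOSIN), ACATTGT (DMRT core), AGGTCA (retinoic acid receptor core site), TGACGTCA (CRE) and GGGCGG (GC box). They lie at chr11:102665335-102665584 (+) for Meioc, chr4:107684231-107684480 (-) for Dmrtb1, chr17:50293621-50293870 (-) for Dazl and chr6:34920698-34920947 (+) for Stra8.
Meioc: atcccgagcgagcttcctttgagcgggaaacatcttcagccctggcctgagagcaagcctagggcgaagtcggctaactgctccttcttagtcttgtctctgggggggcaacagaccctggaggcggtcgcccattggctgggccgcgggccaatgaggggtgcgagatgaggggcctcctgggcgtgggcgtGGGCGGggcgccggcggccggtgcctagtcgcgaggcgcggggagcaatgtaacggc
Dmrtb1: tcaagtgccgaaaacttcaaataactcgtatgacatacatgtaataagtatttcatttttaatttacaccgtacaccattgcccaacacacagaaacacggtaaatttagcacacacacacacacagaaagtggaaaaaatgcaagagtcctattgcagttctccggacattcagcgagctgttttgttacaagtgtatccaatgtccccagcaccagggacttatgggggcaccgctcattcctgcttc
Dazl: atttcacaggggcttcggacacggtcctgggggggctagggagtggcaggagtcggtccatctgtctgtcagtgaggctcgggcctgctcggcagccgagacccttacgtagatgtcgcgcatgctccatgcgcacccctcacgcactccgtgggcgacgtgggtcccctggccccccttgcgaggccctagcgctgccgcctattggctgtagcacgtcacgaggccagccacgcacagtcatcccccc
Stra8: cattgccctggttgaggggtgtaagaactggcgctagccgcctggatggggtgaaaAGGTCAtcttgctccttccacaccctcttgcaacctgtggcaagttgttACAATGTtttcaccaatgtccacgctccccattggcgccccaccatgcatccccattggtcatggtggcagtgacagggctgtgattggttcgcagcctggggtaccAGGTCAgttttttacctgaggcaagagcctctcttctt

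The Meioc and Dazl windows were rich in G and C, at 67.6% and 67.2%, with 22 and 20 CpG dinucleotides, against medians of 52.4% and 6 over 32851 RefSeq promoter windows of that length. Stra8 (54.8%, 5 CpGs) lay close to those medians. Dmrtb1 had 2 entries: the one printed, with its start 68 bp from the listed start, held 42.4% G and C and 7 CpGs, whereas the other, starting 573 bp from it inside the gene, held 75.6% and 21. Among the 8 windows of the 7 genes, AGGTCA matched 2 times in Stra8, 194 and 38 bases before the start, and 1 time in Sohlh1; 14.0% of all windows hold it. ACATTGT matched in Stra8 alone, 145 bases before the start and on the opposite strand, and is held by 2.56% of all windows. CNCCTCAG matched in Sohlh2 alone (6.42% of all windows) and CACGTG in Sohlh1 alone (6.02%). GGGCGG was found in 5 of the 8 windows, among them that of Meioc 57 bases before the start (32.7% of all windows), and TGACGTCA in none (1.55%). The looser E-box CANNTG, which includes CACGTG and was not capitalised, matched 6 of the 8 windows against 66.2% of all. A match describes the letters of a window and shows no binding.

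The H3K27ac libraries held 17877 to 73316 peaks, and the 4 adult libraries held the most. Read depth is unknown. The background height under each library, the value its fold enrichments are set against, ranged from 0.564 to 1.62 reads of pileup. It was higher in replicate 1 than in replicate 2 of every group. Fold enrichment, the deposited measure used throughout, is the pileup at a summit over that background after 1 is added to both. The lowest value that was called ranged from 3.05 to 3.84 between libraries, so a promoter without a peak is below detection there, not shown to lack the mark. Input libraries held 359 to 1192 peaks, and none of the 16 had a peak at any of the 9 promoters. All 6 spermatocyte markers had promoter peaks in every PS and RS library. Of 6 spermatid markers, 5, Prm1 and Tnp1 among them, were also marked in both. Prm2 had no start listed under its symbol alone and could not be assessed. In spermatogonia, Piwil1, Ldhc and Pgk2 were never called, and Sycp1, Sycp3 and Ovol2 gave 0 to 3 calls a library. Kit was marked in all 4 c-Kit+ libraries and in 2 of 4 Thy1+ libraries. Of 8 markers of undifferentiated spermatogonia, 6 had a start listed under the symbol alone, and the others, Nanos2 among them, could not be assessed. No library had a call at Thy1 itself, Ret, Nanos2 or Lhx1, which include the markers that could not be assessed. All 12 libraries had a call at Etv5. The undifferentiated markers did not set Thy1+ cells apart: 2 to 4 were called in Thy1+, 1 to 3 in c-Kit+ and 3 in each adult library. Their summed fold enrichment was 12.8 to 34.4 in Thy1+, 8.16 to 19.4 in c-Kit+, 49.2 to 52.8 in PS and 24.9 to 29.7 in RS. The Scml2 promoter had a peak in 4 of 8 Scml2-KO and 0 of 4 WT libraries. Those with a peak were Thy1+ KO replicate 1 (6.08), c-Kit+ KO replicate 1 (4.26) and both PS libraries (3.81 and 5.33). The WT libraries are all of spermatogonia. The deleted part is not given, so these calls do not check the genotype.

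Promoter peaks at these genes were called more often in adult libraries, as they were at genes in general. Member promoters were called 3 and 2 times in the 2 Thy1+ WT libraries, 3 and 3 times in c-Kit+ WT, 5 and 2 times in Thy1+ KO, and 5 and 2 times in c-Kit+ KO. In PS and in RS they were called 8 times in replicate 1 and 6 times in replicate 2. That made 28 calls over 4 adult libraries and 25 over 8 spermatogonial ones. Of all 17923 genes, 72.2% to 76.2% were called in the adult libraries and 55.5% to 68.0% in the spermatogonial ones. A higher adult count was thus seen over all genes as well. Whether the members differed more between stages than genes in general was not tested. When only the same number of strongest peaks was kept in each library, members were called 4 to 6 times in adult and 2 to 4 times in spermatogonial libraries, beside 58.5% to 63.9% and 53.5% to 62.2% of all genes. Ythdc2 and Dazl, 2 of the 9, were marked in all 12 libraries, against 48.8% of all 17923 genes. Among the members, Dmrtb1 alone was marked in all 4 adult libraries and in no spermatogonial library, a pattern held by 5.82% of all genes.

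**Figure D1:**
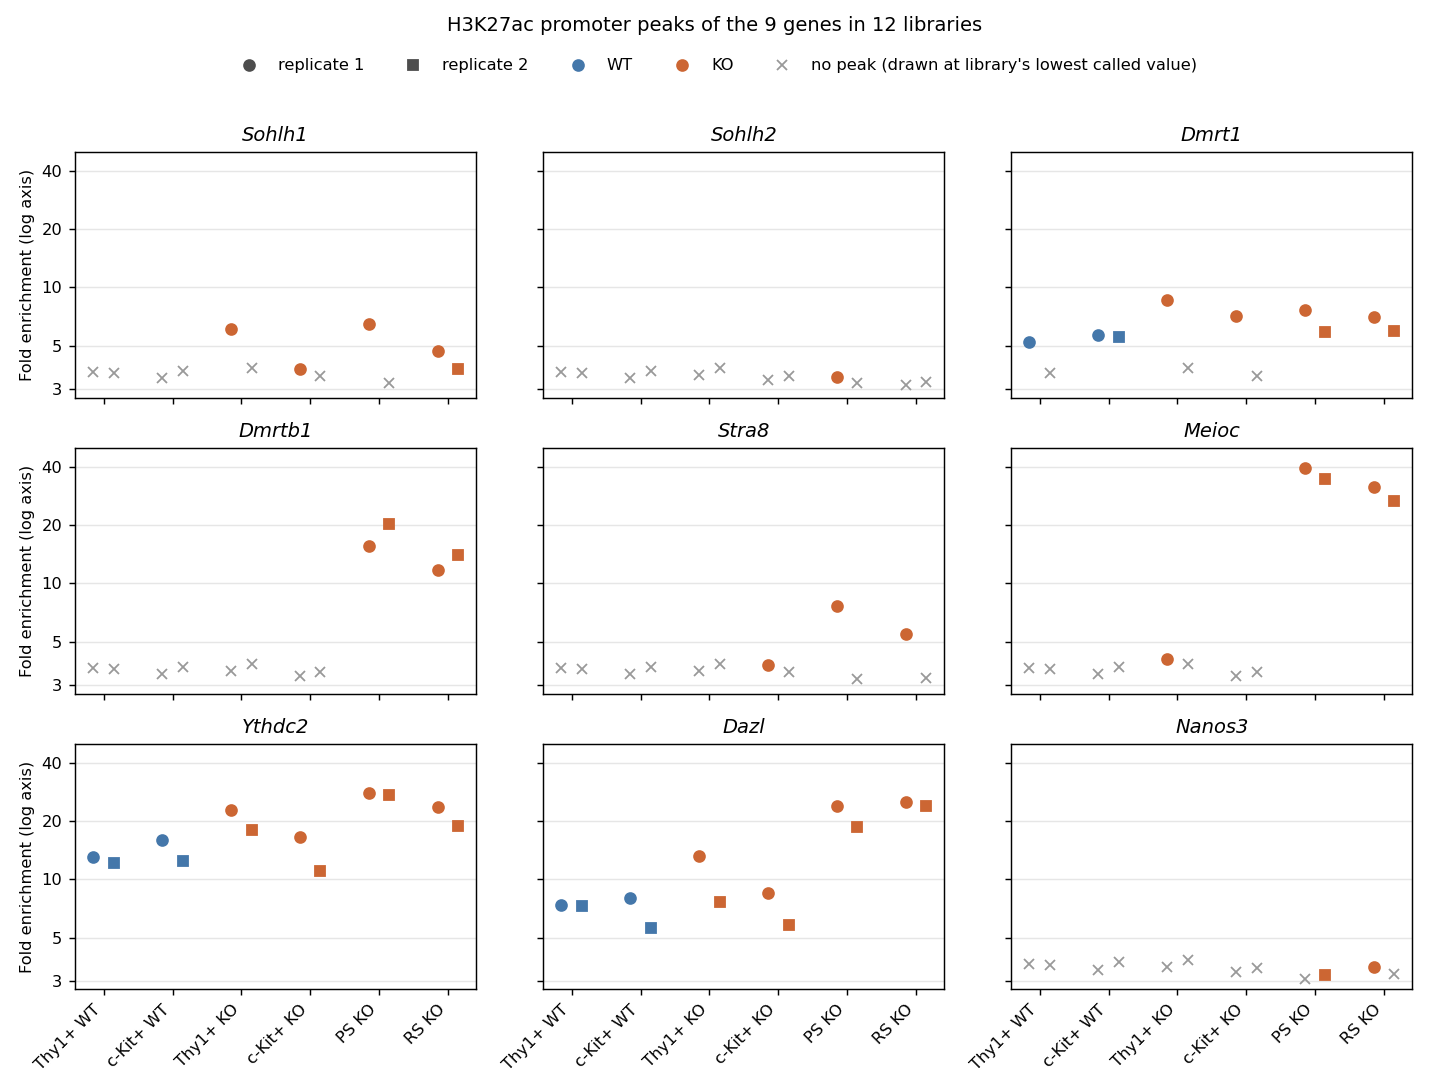
Highest H3K27ac fold enrichment within 1 kb of the start of each gene (log axis) in 12 libraries, by group; circles are replicate 1, squares replicate 2, and crosses mark libraries with no peak, drawn at that library's lowest called value. Meioc and Dmrtb1 stand high in the 4 PS and RS libraries, Ythdc2 and Dazl have peaks in all 12, and Sohlh1, Sohlh2, Stra8 and Nanos3 have few and low ones.

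Among the transcription factors, Dmrtb1 showed the clearest difference between stages. Its promoter (chromosome 4, gene from 107676290 to 107684162, minus strand) had a fold enrichment of 15.6 in PS replicate 1, 20.3 in PS replicate 2, 11.7 in RS replicate 1 and 14.1 in RS replicate 2. None of the 8 spermatogonial libraries had a peak there. The peak covered 1398 to 1874 bp, and its summit lay 629 to 832 bp inside the gene, beyond the start of the G- and C-rich RefSeq entry. These values fell at percentiles 39.3 to 59.0 of all promoters called in the same library, so they were middling for an acetylated promoter. RS was lower than PS by an amount within the error: the log2 change after centring was -0.28 (SE 0.238, adjusted p 0.456, limma). Small peaks also appeared around the gene in adult cells: 3 of 4 adult libraries had one 8.5 kb or more downstream of the start (4.33 to 5.48) and 3 of 4 had one 5.3 kb upstream (4.19 to 4.87), and in both places PS replicate 2 had none.

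Dmrt1, the factor that restrains meiosis, was marked weakly at every stage. Its promoter (chromosome 19, gene from 25505706 to 25604328, plus strand) gave 5.24 in Thy1+ WT replicate 1, 5.70 and 5.58 in c-Kit+ WT, 8.61 in Thy1+ KO replicate 1 and 7.09 in c-Kit+ KO replicate 1. It was not called in replicate 2 of Thy1+ WT, Thy1+ KO or c-Kit+ KO. In adult cells it gave 7.63 and 5.86 in PS and 7.04 and 5.95 in RS. The adult values lay within the range of the spermatogonial ones, and the 9 called values sat at percentiles 13.1 to 29.4 of their libraries. RS and PS did not differ beyond the error (log2 change 0.15, SE 0.215, adjusted p 0.677, limma). The promoter mark was split into 2 or 3 peaks in all 5 spermatogonial libraries that had it and into 2 in 3 of the 4 adult ones; it covered 358 to 1751 bp in the former and 1023 to 1975 bp in the latter. Dmrt1 is also a Sertoli cell gene, and Sertoli markers moved between libraries: of 6, those with a promoter peak numbered 0 to 4 in Thy1+, 1 to 5 in c-Kit+, 5 in PS and 2 to 3 in RS, with summed fold enrichment of 0 to 24.3, 6.41 to 23.6, 48.8 to 62.4 and 8.66 to 16.04. Fshr was called in 1 of the 12 libraries. The part of these cells in the Dmrt1 signal was not tested.

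Sohlh1 (chromosome 2, gene from 25842997 to 25847248, minus strand) had low promoter peaks in 5 libraries, all Scml2-KO: 6.08 in Thy1+ replicate 1, 3.78 in c-Kit+ replicate 1, 6.48 in PS replicate 1, and 4.69 and 3.79 in RS. These stood at percentiles 3.28 to 16.1 of called promoters. With a stricter minimum of 5 on the -log10 q-value, 1 spermatogonial and 1 adult call were left. Its partner Sohlh2 (chromosome 3, gene from 55182044 to 55209957, plus strand) was called in PS replicate 1 alone, at 3.43, close to that library's lowest called value of 3.05. About 4.6 kb upstream of Sohlh1, peaks listed with the potassium channel gene Kcnt1 as well were found in all 4 adult libraries (highest 4.19, 5.86, 5.87 and 4.33) and in Thy1+ KO replicate 1 (5.06). The tables do not assign them to either gene. Neither Sohlh gene therefore showed a promoter peak in any of the 4 WT spermatogonial libraries, where c-Kit+ and Thy1+ were below detection alike.

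Among the meiotic entry genes, Meioc had the strongest promoter acetylation of all 9. Its promoter (chromosome 11, gene from 102665585 to 102682238, plus strand) reached 39.3 and 34.7 in PS and 31.3 and 26.5 in RS. In spermatogonia it was called 1 time in 8 libraries, in Thy1+ KO replicate 1, at 4.05. The 4 adult values stood at percentiles 93.8 to 99.4 of the promoters called in their libraries, whereas the spermatogonial one stood at 2.62. The adult peaks covered 3155 to 4092 bp against 145 bp for the spermatogonial one. RS was not distinguishable from PS at Meioc (log2 change -0.16, SE 0.197, adjusted p 0.606, limma). When all libraries were limited to the same number of strongest peaks, Meioc and Dmrtb1 were each called in 4 of 4 adult and 0 of 8 spermatogonial libraries. The share of all genes with that pattern under this limit was not computed, nor was the share with the pattern of Meioc before it.

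**Figure D2:**
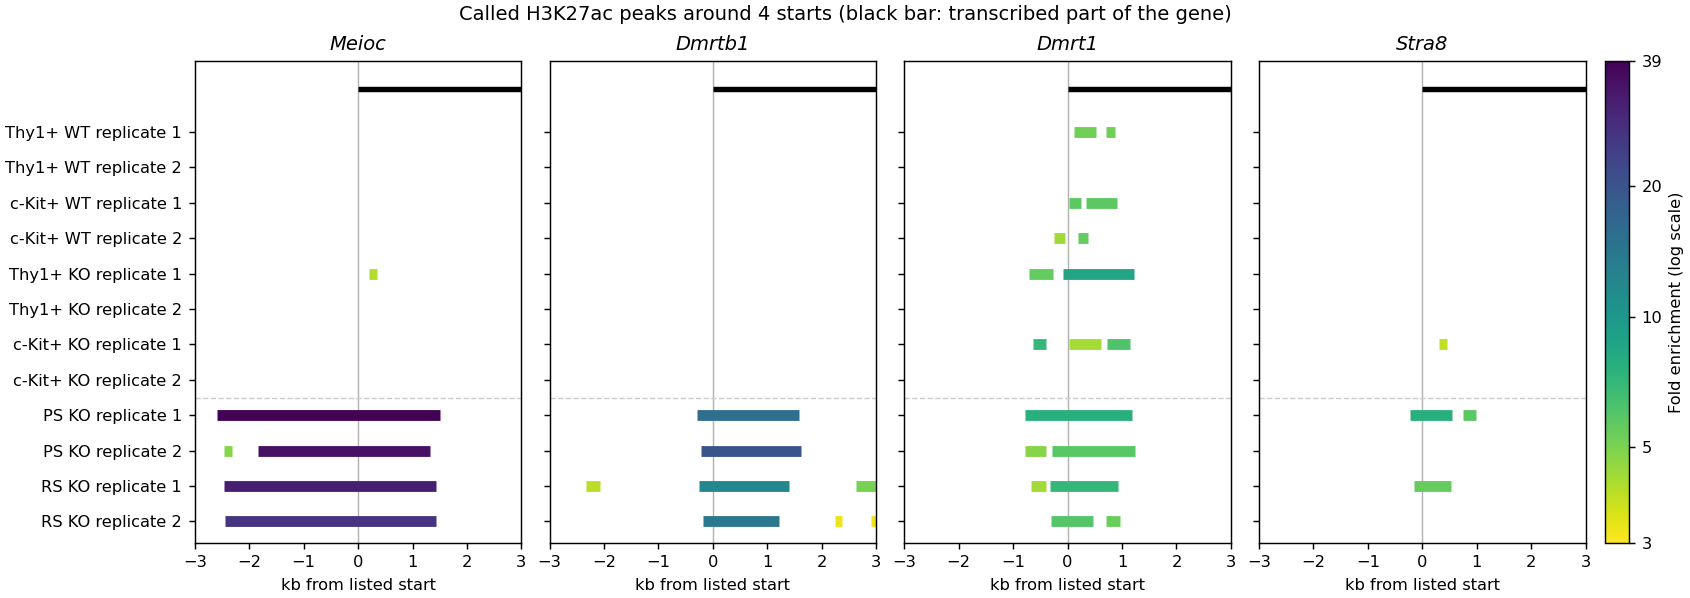
Extent of called H3K27ac peaks within 3 kb of the listed start (x axis, kb in the direction of transcription) of Meioc, Dmrtb1, Dmrt1 and Stra8 in each of 12 libraries (rows), coloured by fold enrichment on a log scale; the black bar is the transcribed part. Meioc peaks span the start on both sides in adult cells, Dmrtb1 peaks lie mostly inside the gene, and the Dmrt1 mark is split into several peaks in every library that has it except PS replicate 1.

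Stra8, the retinoic acid target (chromosome 6, gene from 34920960 to 34939342, plus strand), had a promoter peak in 3 libraries. It measured 3.78 in c-Kit+ KO replicate 1, 7.63 in PS replicate 1 and 5.48 in RS replicate 1. Replicate 2 of the same 3 groups had no peak, so no group showed it in both libraries, and all 4 Thy1+ and both c-Kit+ WT libraries were without one. Where it was called in adult cells it covered 993 and 683 bp, at percentiles 20.3 and 12.4. Its summit lay 305 to 414 bp inside the gene. Replicate 1 of each of these groups had the higher background height; the part of depth in the difference between replicates was not tested. A pattern of 1 to 6 calls confined to replicate 1 libraries was shared by Sohlh2 and by 4.03% of all genes.

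Ythdc2, the helicase partner of MEIOC, was acetylated at all stages. Its promoter (chromosome 18, gene from 44828665 to 44889720, plus strand) measured 13.1 and 12.1 in Thy1+ WT, 15.96 and 12.4 in c-Kit+ WT, 22.8 and 17.9 in Thy1+ KO and 16.6 and 11.1 in c-Kit+ KO. In adult cells it measured 27.8 and 27.2 in PS and 23.5 and 18.9 in RS. Spermatogonial and adult ranges overlapped through Thy1+ KO replicate 1. Within each library the promoter ranked high, at percentiles 71.7 to 90.7. It covered 890 to 1593 bp in spermatogonia and 1552 to 1904 bp in adult cells, with its summit within 225 bp of the start. A weak intronic peak 53.1 kb into the gene was called in 3 of 4 adult libraries (3.81, 4.80 and 4.33, absent from RS replicate 1) and in no spermatogonial library. The partners thus differed in pattern: Meioc was called in 1 of 8 spermatogonial libraries and in all 4 adult ones, and Ythdc2 in all 12.

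The RNA-binding proteins differed from each other as well. The Dazl promoter (chromosome 17, gene from 50279393 to 50293620, minus strand) measured 7.34 and 7.24 in Thy1+ WT, 7.98 and 5.58 in c-Kit+ WT, 13.2 and 7.67 in Thy1+ KO and 8.51 and 5.83 in c-Kit+ KO. It measured 24.0 and 18.7 in PS and 25.0 and 23.8 in RS. All 4 adult values were above all 8 spermatogonial ones, and the mark was broader, covering 2358 to 2826 bp in adult cells and 307 to 1130 bp in spermatogonia. These values are not centred. Library medians over promoters called in all 12 libraries were 15.7 to 22.4 in adult and 8.68 to 18.7 in spermatogonial libraries. The share of all genes separated in this way, by value or by length, was not computed. The promoter of Nanos3 (chromosome 8, gene from 84173733 to 84176552, minus strand) was called in 2 libraries, PS replicate 2 at 3.20 and RS replicate 1 at 3.52. The first of these is the lowest value called in that library.

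**Figure D3:**
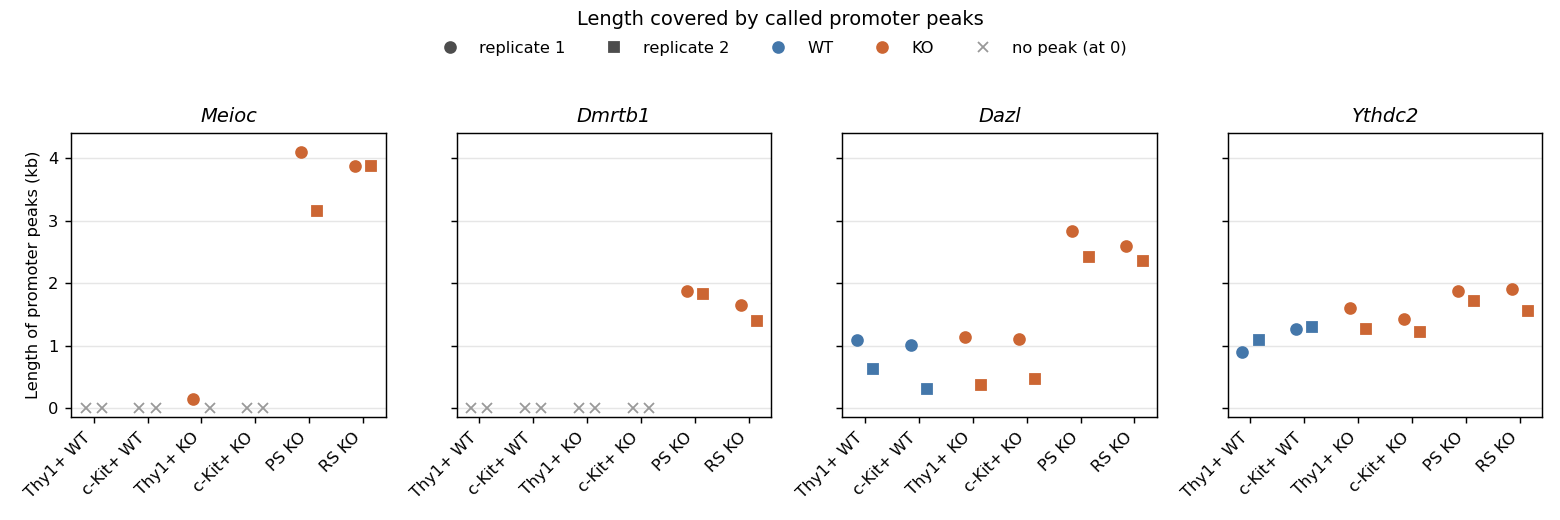
Total length of called promoter peaks (kb) of Meioc, Dmrtb1, Dazl and Ythdc2 in 12 libraries by group; circles are replicate 1, squares replicate 2, blue WT, orange KO, crosses no peak. Meioc peaks cover 3155 to 4092 bp in PS and RS, and Dazl peaks are longer in the adult libraries than in any spermatogonial one.

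Adult and spermatogonial Scml2-KO libraries were compared at the 2 promoters called in all 8. Fold enrichment was taken on the log2 scale and centred on each library's median over 9304 gene promoters called in all 8, since library medians differed (8.68 to 22.4 in fold over promoters called in all 12, and the lowest in c-Kit+ WT replicate 2 and the highest in PS replicate 2). Dazl was higher in adult cells by 0.74 after centring (means 0.28 and -0.46, n = 4 libraries each), with no overlap between the groups, and by 1.43 without centring. The 2-sided exact permutation test gave p 0.0286, the smallest value that 4 against 4 libraries allow. It counts each library as independent, although each side joins 2 cell populations with 2 libraries each. Of all 9304 promoters, 10.9% had adult values all above the spermatogonial ones after centring. Leaving out any 1 of the 4 spermatogonial libraries gave an exact p of 0.0571, with differences of 0.70 to 0.75 and the groups still apart. Ythdc2 changed sign with the scaling: the adult difference was -0.15 after centring (exact permutation p 0.114, groups overlapping) and 0.54 without it (exact permutation p 0.0571). Without Thy1+ KO replicate 1 the centred value was -0.20 (exact permutation p 0.0286).

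Step by step, the same promoters were compared by limma on merged regions with a peak in every library of the comparison, with Benjamini-Hochberg adjustment over all regions tested. From c-Kit+ spermatogonia to PS in Scml2-KO, 31.9% of 12501 regions changed at an adjusted p under 0.05 (limma), 854 upward and 3138 downward. Distal regions are included in that share. With 1 value per gene promoter, 2312 of 9846 changed. Dazl was higher in PS by 0.51 (SE 0.208) but did not pass (adjusted p 0.0784, limma); without centring its difference was 1.59. It passed in 1 of 11 alternatives, without c-Kit+ KO replicate 1 (0.64, adjusted p 0.0315, limma). Ythdc2 differed by -0.05 (SE 0.193, adjusted p 0.864, limma), and by 1.02 without centring. Meioc and Dmrtb1 could not be fitted here, because c-Kit+ libraries had no peak at them. From PS to RS, 20.2% of 21329 regions, distal ones included, changed, 2648 upward and 1661 downward. With 1 value per gene promoter, 884 of 12020 did. None of the 5 member promoters tested changed. The differences there were 0.40 for Dazl (SE 0.219, adjusted p 0.234) and -0.19 for Ythdc2 (SE 0.190, adjusted p 0.525, limma), besides those of Meioc, Dmrtb1 and Dmrt1 given above. Over the 7 member regions tested, which include 2 distal ones of Dazl, the median change was -0.16, against -0.08 over all regions.

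From Thy1+ to c-Kit+ spermatogonia, few regions differed. Of 9585 regions 1.09% changed, 77 upward and 27 downward. Dazl (-0.05, SE 0.147, adjusted p 0.913) and Ythdc2 (0.06, SE 0.153, adjusted p 0.890, limma) were not among them. The calls of the other promoters gave no difference between Thy1+ and c-Kit+ cells that held in both genotypes: Dmrt1 was called in 2 of 4 Thy1+ and 3 of 4 c-Kit+ libraries, Sohlh1 in 1 of 4 of each, Meioc in 1 of 4 Thy1+ libraries and Stra8 in 1 of 4 c-Kit+ libraries. Those counts were not tested. Markers of somatic testis cells also differed between the 2 sorts. Leydig markers called numbered 0 to 1 in Thy1+ and 1 to 3 in c-Kit+ libraries, and peritubular myoid markers 2 to 3 and 0 to 2. Macrophage markers numbered 0 to 1 and 0, and endothelial markers 1 to 2 and 1, in the same order. The part of such cells in the regions that changed was not tested.

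Loss of Scml2 was compared with WT in the same 8 spermatogonial libraries. The share of regions changed was 0% of 9585 by limma, with 502 at an unadjusted p under 0.05 (603 when replicate numbers enter as a block). The difference between Scml2-KO and WT was -0.0028 for Dazl (SE 0.147, adjusted p 0.999) and 0.04 for Ythdc2 (SE 0.153, adjusted p 0.993, limma). Thy1+ KO replicate 1 had the highest spermatogonial values of both, 13.2 and 22.8, and the highest library median of the spermatogonia, 18.7 over promoters called in all 12 libraries. The interaction of genotype and population was 0.06 for Dazl and -0.29 for Ythdc2, both at an adjusted p of 0.998 (limma). In WT spermatogonia only the promoters of Dmrt1, Ythdc2 and Dazl were called, and the 5 spermatogonial calls of Sohlh1, Stra8, Meioc and, at a distance, Dmrtb1 all came from replicate 1 of a Scml2-KO group, whose replicate 2 lacked them. Those Scml2-KO replicate 1 libraries called 63.5% to 68.0% of all genes, and the WT libraries 55.5% to 62.0%.

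Away from the promoters, the members had 59 peaks listed under their symbol alone, 52 of them in adult libraries. Those libraries held 57.2% of all H3K27ac peaks, promoter peaks included. The adult share among all peaks away from promoters was not computed. Peaks were counted in each library, so 1 place can count several times. Of the 59, 30 belonged to Dazl, 15 of them in a group 48.4 kb from its start and 6 in a group 52.5 kb from it. The strongest lay downstream of the gene, in an intergenic region at chr17:50237334-50240507, whose nearer edge is 53113 bp from the start. It measured 18.7 and 24.5 in PS and 12.9 and 9.74 in RS, and no spermatogonial library had a peak there. All PS values were above the RS values, and RS was lower by 0.74 on the log2 scale (-0.74, SE 0.205, adjusted p 0.0327, limma), while the promoter's own change was 0.40 in the other direction and not called. The distal call held in 5 of 10 alternatives, which gave -0.94 to -0.58. It was lost with quantile normalization (-0.63, adjusted p 0.0575, limma) and with the stricter q-value (-0.58, adjusted p 0.0619, limma). It was also lost without PS replicate 2 (-0.68, adjusted p 0.169, limma), without RS replicate 1 (-0.80, adjusted p 0.0923, limma) and without RS replicate 2 (-0.71, adjusted p 0.132, limma), fits in which the lone library of a group is assumed to vary like the other group. A group of smaller peaks 48.4 kb from the start was also called in all 4 adult libraries and no spermatogonial one, with highest values of 6.86 and 6.40 in PS and 8.21 and 6.49 in RS. The merged region tested there did not change between them (0.20, SE 0.206, adjusted p 0.534, limma).

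**Figure D4:**
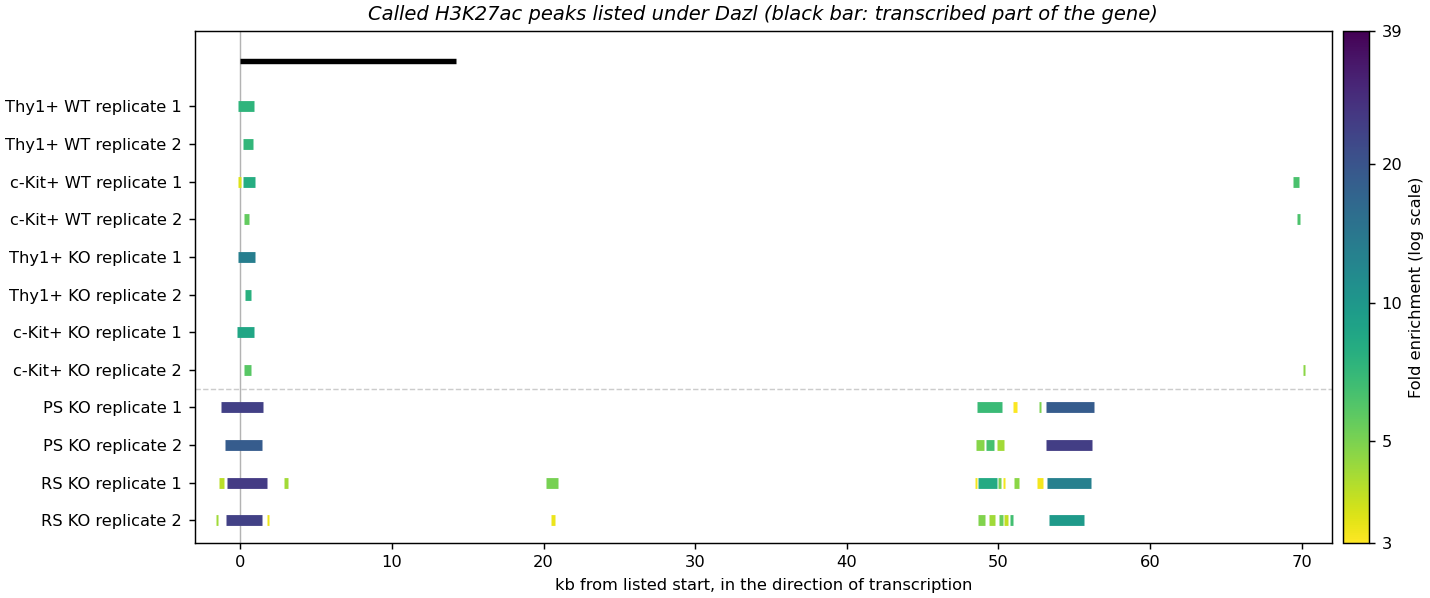
Called H3K27ac peaks listed under Dazl in each of 12 libraries (rows) by distance from its start (x axis, kb in the direction of transcription), coloured by fold enrichment on a log scale; the black bar is the transcribed part of the gene. The promoter is marked in every library, the groups of peaks from 48.4 kb and from 52.5 kb appear in the 4 adult libraries, and the peaks 69.5 kb away appear in 3 c-Kit+ libraries.

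A different intergenic place listed under Dazl, 69.5 kb from its start, had short peaks in 3 of 4 c-Kit+ libraries: 6.27 and 6.20 in c-Kit+ WT and 4.66 in c-Kit+ KO replicate 2. No Thy1+ or adult library had one. The 3 peaks together spanned 757 bp, at chr17:50223408-50224164, and the third did not overlap the others. This was the only distal position listed under a member alone that was called in more than 1 spermatogonial library. One input library, RS WT replicate 2, had a short peak listed under Dazl elsewhere in the same interval (fold enrichment 5.50); it overlapped none of these.

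Upstream of Nanos3 lay the densest acetylation near any member, but the tables list it with microRNA genes too. Of the 80 shared peaks, 71 named Nanos3 with Mir181c and Mir181d, and 37 of these named Mir23a as well. From 20.0 kb upstream of the Nanos3 start, the highest values were 24.1 and 18.1 in Thy1+ WT, 17.7 and 5.58 in c-Kit+ WT, 31.4 and 14.7 in Thy1+ KO and 12.3 and 9.91 in c-Kit+ KO. They were 38.9 and 40.5 in PS and 39.1 and 33.5 in RS, above every spermatogonial library. These values are not centred, and the share of all regions separated in this way was not computed. These peaks cannot be assigned to Nanos3, whose own promoter stayed at or below 3.52.

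Other genes of the same pathway were read from a list of 28, of which 25 were listed alone. Of the 25, 8 were marked in all 12 libraries, against 48.8% of all genes. Among them were the retinoic acid receptors Rara and Rarg and the intercellular bridge gene Tex14. Rec8, a meiotic cohesin, and Hormad1, a chromosome axis protein, shared the pattern of Dmrtb1, called in all 4 adult and no spermatogonial library. Of all genes, 5.82% held it. None of 8 tested passed by limma for genotype or for c-Kit+ against Thy1+, where 0% and 1.09% of all regions did. From c-Kit+ to PS, 2 of 12 rose: Sycp1, a synaptonemal complex protein (1.19, SE 0.188, adjusted p 0.000628, limma), and the cohesin gene Smc1b (0.86, SE 0.252, adjusted p 0.0205, limma). The 3 that fell were the DNA methyltransferase Dnmt3b (-1.32, SE 0.221, adjusted p 0.000873, limma), the cyclin gene Ccnd2 (-0.58, SE 0.201, adjusted p 0.0439, limma) and Xrn1, an RNA exonuclease that binds YTHDC2 (-1.07, SE 0.223, adjusted p 0.00322, limma). From PS to RS, 1 of 21 rose, Rec8 (0.92, SE 0.277, adjusted p 0.0448, limma), and 2 fell, Kit (-0.81, SE 0.250, adjusted p 0.0492, limma) and the recombination factor Prdm9 (-0.73, SE 0.199, adjusted p 0.0313, limma). Of all regions, 31.9% changed from c-Kit+ to PS and 20.2% from PS to RS. With 1 value per gene promoter, 2312 of 9846 and 884 of 12020 did. The median change of the list was 0.16 from c-Kit+ to PS and -0.03 from PS to RS, against -0.17 and -0.08 over all regions.

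The promoters most like those of the 2 members marked everywhere were sought among 8752 genes called in all 12 libraries, by the distance between centred log2 values over the 12. The 5 nearest to Ythdc2 were Taf1d, at a distance of 0.39, Kat6b, Capn7, Fam120a and Fam120aos, against a median distance of 1.96 over all genes. Those nearest to Dazl were Slc22a15, at 0.50, Ssx2ip, Vhl, 4933406I18Rik and Pde3b, against a median of 2.34. Fam120a and Fam120aos were at the same distance, as were 4933406I18Rik and Pde3b, and the 12 points share libraries of 6 groups.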

How the data were processed

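Each of 28 libraries had 1 deposited peak table, made by the authors with Bowtie and MACS2 on mm10, per the submitters' processing notes; versions and settings are not given in the sources used here. Per the file headers, each line gives a summit with its pileup (a height or signal), its fold enrichment (a ratio) and -log10 p and q-values. From the values, the fold is (pileup + 1) over (background + 1), with 1 background per library. Peaks were called per library. Summit lines of 1 peak were joined, keeping the highest; mitochondrial lines were left out. Coordinates are those of the files, counted from 1.

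A promoter value is the highest fold within 1 kb of the start. For tests, peaks overlapping by 1 bp or more were merged, only regions called in all compared libraries were kept, log2 fold was centred on the library median, and limma 3.58.1 (R 4.3.3) was run with Benjamini-Hochberg adjustment; the threshold was 0.05. Cell population and genotype were covariates of each other. Adult and spermatogonial promoters were compared by an exact permutation test over all arrangements (numpy 2.4.6, Python 3.11.15). On simulated data, a log2 change of 1 was recovered for 100% of changed regions with 8 libraries. With 4, it was recovered for 89% (PS against c-Kit+) and 69% (RS against PS). The simulation gave every region of a comparison the same normal spread (SD 0.224 to 0.245) and independent libraries. Its shares therefore do not measure what the fits could detect in the real data. Alternatives were quantile normalization, other overlaps, windows and thresholds, values for uncalled libraries, removal of input regions, a replicate block and leaving out each library. All 9 members are named whatever their values; pathway genes are named where they passed the threshold or shared a member's pattern. The members are set by name, but the set was proposed, and the lists chosen, with earlier results of these data known. Replicate numbers do not pair the libraries (below).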

Additional observations from a re-analysis of the deposited data

How the results depend on the processing

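Same-numbered libraries deviated together only weakly (correlations of 0.0481 to 0.159 over the 6 pairs of spermatogonial groups, 0.000391 for PS with c-Kit+ and 0.0412 for RS with PS), not above 0.1 in every pair, so the numbers were not taken as pairs. Replicate 1 nonetheless had more peaks and a higher background than replicate 2 in each of the 6 groups. With the replicate block, 0 regions were called for genotype, 206 for c-Kit+ against Thy1+, 3705 for PS against c-Kit+ and 4456 for RS against PS, and the adult difference of Dazl (0.74) had an exact p of 0.0556, the smallest that design allows.

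The number of regions called moved most. For c-Kit+ against Thy1+ (104) it was 430 with uncalled libraries at their lowest called value, 18 with a -log10 q-value of at least 5 and 160 without input regions, and 9 to 178 when 1 library was left out. For PS against c-Kit+ (3992) it was 784 with quantile normalization (386 upward, 398 downward), 16394 with uncalled values set, 2013 with the stricter q-value, 2312 with 1 value per gene and 0 to 4564 when 1 library was left out. For RS against PS (4309) it was 13206, 1982 and 884 under those last 3 settings and 0 to 3402 when 1 library was left out; the counts of 0 came without c-Kit+ KO replicate 2 and without PS replicate 2. The causes were not tested.

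No member promoter passed in the limma main fits, and small differences changed sign. The genotype difference of Dazl was 0.023 with quantile normalization and 0.028 with 1 value per gene, and -0.055 to 0.089 when 1 library was left out; that of Ythdc2 was -0.069 to 0.116. Leaving out 1 library gave c-Kit+ minus Thy1+ values of -0.101 to 0.022 for Dazl and -0.0037 to 0.174 for Ythdc2, a PS minus c-Kit+ value of -0.106 to 0.095 for Ythdc2 and an RS minus PS value of -0.18 to 0.33 for Dmrt1. In the adult comparison Dazl gave 0.62 to 0.91 when 1 library was left out, and Ythdc2 gave -0.205 to -0.082, and 0.54 without centring. Member promoters called numbered 19 over 8 spermatogonial and 23 over 4 adult libraries with the stricter q-value, and 22 and 19 with the same number of strongest peaks. Read depth is unknown, so a promoter without a peak may lie below what its library could detect.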
